A study of Mus musculus with 26 samples.

Results

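The synaptic vesicle and release machinery is the set of proteins that fills, docks, fuses and recycles the vesicles of nerve terminals. Its members here are 41 genes listed by name for their function and not picked by their measured values, although earlier results of these data were known. They were found by gene symbol in 3 tables of ribosome profiling from mouse striatum. Each table holds the same 37 of the 41, against 9602 transcripts in all tables together, and Stx1a, Napb, Unc13a and Ppfia3 are in none. The tables give ribosome footprints and RNA-Seq reads over coding sequences (CDS) as 1 normalized mean per group and assay. In the study, mice that overexpress LRRK2 with the G2019S mutation (GS LRRK2 TG) or with G2019S and the kinase-inactivating D1994A change (GS/DA LRRK2 TG) were compared with non-transgenic (non-TG) control mice, and LRRK2 knockout (LRRK2 KO) with wild-type (WT) mice. All are C57BL/6 animals, listed in the labels as 3 months old. The transgenes are in lines of high copy number and are switched on by CaMKII-tTA, a driver of forebrain neurons, after doxycycline is withdrawn at weaning. Each library pools caudate putamen tissue from 3 mice of both sexes. The labels list 2 libraries a group and assay, except 3 for non-TG control in both assays and 3 for the footprints of WT and LRRK2 KO.

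Neurotransmitter release runs through a fixed order of steps. Vesicles carry transporters and membrane proteins, are clustered by synapsins, and are docked by the large scaffold proteins of the active zone. The SNARE proteins then pull the vesicle and plasma membranes together, complexins hold and prime the assembled SNAREs, synaptotagmins trigger fusion when calcium enters, and NSF with its adaptor takes the spent SNAREs apart before endocytic adaptors retrieve the membrane. In the striatum, the spiny projection neurons release GABA, while the terminals of cortical and thalamic axons, whose cell bodies lie elsewhere, release glutamate, and most mRNA in a dissected piece belongs to cell bodies. Among 16 markers of striatal spiny neurons, 14 were in the tables with none at 0, led by Ppp1r1b at 42124 normalized footprint reads in non-TG control.

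Once reads are divided by CDS length, the members spread over a wide range in the control mean of the GS/DA table. Snap25, a SNARE of the plasma membrane, had the highest level at 51778 normalized footprint reads per kb of CDS. Cplx2, a complexin, followed at 20836 reads per kb. Vamp2, the vesicle SNARE, had 18584 reads per kb. These 3 partners in one fusion complex had the highest footprint levels per kb in WT as well. Cplx1, the other complexin, had 11648 footprint reads per kb, and Sncb, the synaptic protein beta-synuclein, had 10301. The lower end belongs to scaffolds. Pclo, a giant cytomatrix protein of the active zone, had 122 footprint reads per kb. Erc1, another active zone scaffold, had 146 reads per kb. Rims1 and Rims2, which tether vesicles near calcium channels, had 172 and 179 reads per kb, and Itsn1, a scaffold of endocytosis, had 178. The median of the 7 active zone members was 179 footprint reads per kb, against 18584 for the 3 SNAREs and 2303 for the 8 vesicle membrane proteins. Over all transcripts the median was 479 reads per kb, and the median member stood at percentile 84.4.

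Translation efficiency (TE) is the log2 ratio of the footprint mean to the RNA-Seq mean of a group. In non-TG control of the GS/DA table, the median TE of the members was 0.53, against 0.040 over all 8576 transcripts. In non-TG control of the GS table the medians were 0.14 and -0.17. Syt4, a synaptotagmin that binds calcium poorly, had the highest TE at 1.70. Sncb had a TE of 1.49, Syngr3, a vesicle membrane protein, of 1.12, and Syn1, which tethers vesicles to actin, of 1.11, with Snap25 between Sncb and Syngr3. These values also depend on the library, since RNA-Seq had 338 and 2593 reads for Sncb, 264 and 1546 for Syngr3 and 1067 and 7651 for Syn1, all below their footprints of 4362 and 3858, 1888 and 2054, and 9723 and 9103. The lowest group values were those of scaffolds. The TE of Rims1 was -2.31, of Rims2 -2.15, of Itsn1 -1.55, of the active zone protein Erc2 -0.76, and of the cytomatrix protein Bsn -0.56. For Itsn1 both control RNA-Seq libraries were high, at 2738 and 3046 normalized reads, against footprint libraries at 963 and 1017. For Rims1 the RNA-Seq libraries were 7443 and 795 against footprints of 726 and 932, so its low TE rests on 1 RNA-Seq library. Rims2 had the same split, with 7606 and 640.0 RNA-Seq reads. Erc2 had 5572 and 941 RNA-Seq reads against footprints of 1941 and 1916. Bsn had 819.9 and 6717 RNA-Seq reads against footprints of 2585 and 2510.2. For both, the footprints lie between the RNA-Seq libraries, so the sign of their TE depends on the library. In WT, Itsn1 had the lowest TE at -2.06, followed by Syt7, a calcium sensor of slow release, at -2.03. Rims2 stood at -1.52 in WT and Rims1 at -1.42, and the highest member was Nsf, the ATPase that separates SNAREs, at 0.33.

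**Figure D1:**
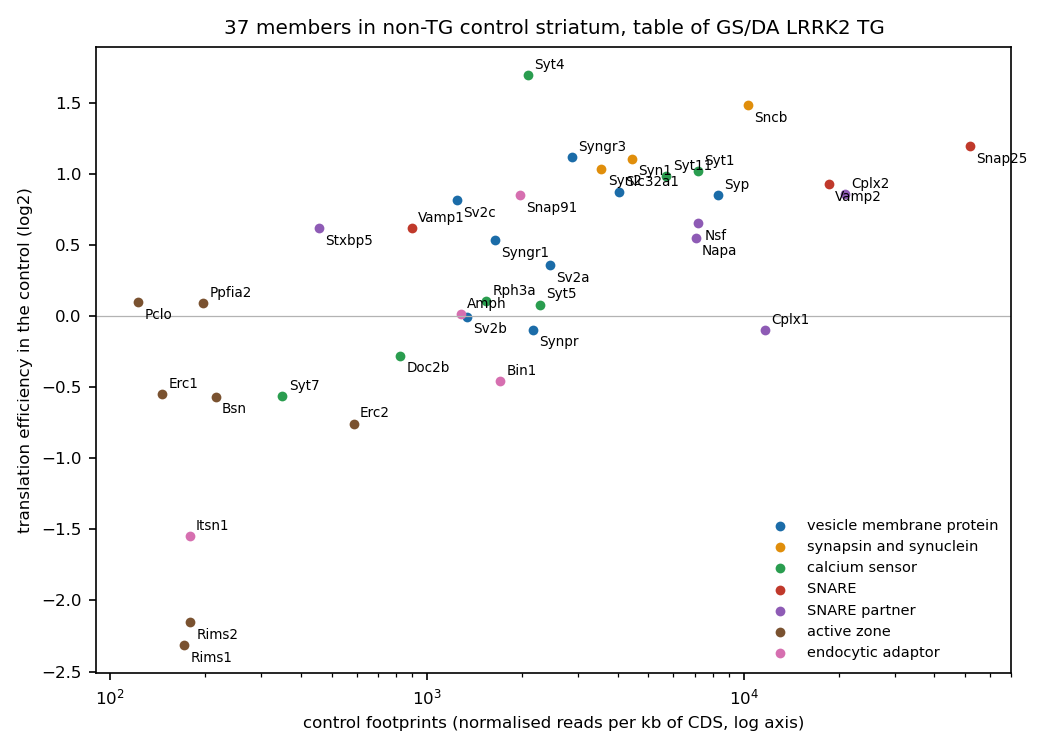
Footprint level (normalized reads per kb of CDS, log axis) against translation efficiency (log2 of the footprint mean over the RNA-Seq mean) of the 37 members in non-TG control striatum, 1 point a member, colored by role. Values are control means of the GS/DA table. Snap25, Vamp2 and both complexins lie at the right, from 11648 reads per kb for Cplx1 to 51778 for Snap25, and the active zone scaffolds lie at the left, with Rims1 lowest at a TE of -2.31.

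The group means hide large differences between libraries. The reads of single libraries could be recovered from 10 of the 12 deposited means, each an average of 2 libraries, but not from the 2 control means of the GS table. Within a table, control and genotype libraries were matched into set 1 and set 2 by a contrast between libraries that recurs in both groups, so the matching is read from the values and not from the labels. Footprint and RNA-Seq sets are not linked to each other. Vamp2 had 307 and 9506 RNA-Seq reads in the 2 control libraries of the GS/DA table, a gap of 31.0-fold, the widest of any member. Its GS/DA LRRK2 TG libraries had 368 and 10329.8, so both groups hold 1 low and 1 high library. For 35 of 36 members the gap between these control RNA-Seq libraries exceeded the change between genotypes. Where the gap recurs in both groups, it does not itself measure the spread of that change between matched sets. In footprints the gap was smaller, with a median of 1.09-fold between the control libraries and 2.37-fold in RNA-Seq. Every TE value below therefore carries the wider spread of RNA-Seq. In bulk tissue, fewer cells of a type and less RNA per cell cannot be told apart.

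The comparison of GS LRRK2 TG with non-TG control asks what a hyperactive LRRK2 kinase does to translation in the striatum. Footprints of the members were close to control, with a median change of -0.026 (log2) against 0.0034 over all transcripts. Of the members 21 of 37 were lower, where 4182 of all 8576 transcripts were. RNA-Seq had a median change of -0.059, against -0.024 over all transcripts. Members whose TE difference lay 1.5 or more standard deviations (z) above the mean of all transcripts were Ppfia2 and Syt4, 2 of 37, where 8.01% of all 8576 transcripts passed. Below a z of -1.5 lay Rims1, 1 of 37, where 3.91% of all transcripts passed. The shares of members were 5.41% up and 2.70% down, and their difference from the background was not tested. No test was made for this table, because its own control libraries could not be separated.

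Among the active zone members, Ppfia2, a liprin that organizes the release site, had 649 and 634 footprint reads in the GS LRRK2 TG libraries, beside a control mean of 606. Its RNA-Seq libraries had 769.7 and 115 reads, beside a control mean of 719. Both footprint libraries lie just above the control mean, and the TE difference was 0.79 (z 3.39). The RNA-Seq control mean may itself join a low and a high library, so it does not show which library the difference rests on. In the GS/DA table the control RNA-Seq libraries of Ppfia2 had 1152 and 249 reads. Rims1 had 6541 and 472 RNA-Seq reads beside a control mean of 2958, and a TE difference of -0.29 (z -1.55). The control RNA-Seq libraries of Rims1 in the GS/DA table were also far apart, at 7443 and 795. Libraries on either side of a control mean therefore do not show whether the difference recurs. Rims2 had 6133 and 350.1 RNA-Seq reads beside 2899.9 and a TE difference of -0.21. Bsn had the lowest footprint change of the members at -0.23, with libraries at 1582 and 2076 beside a control mean of 2149, both lower.

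Of the 3 SNAREs, Vamp1, the vesicle SNARE of a smaller group of neurons, had the highest footprint change of all members at 0.35. Its libraries had 339.7 and 631 reads beside a control mean of 382, 1 below and 1 above. Snap25 had 27700.5 and 32432 footprint reads beside 31125, and a change of -0.050. Among the partners of SNAREs, Cplx2 had a footprint change of -0.13 and an RNA-Seq change of -0.43, with RNA-Seq libraries at 1662 and 4873 beside 4412. The other 4 SNARE partners had smaller footprint changes, from -0.035 for Napa, the adaptor of Nsf, to 0.0050 for Nsf.

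The members grouped as calcium sensors are the synaptotagmins, whether or not they bind calcium, with Rph3a and Doc2b. Among them, Syt4 had 923 and 353 RNA-Seq reads beside a control mean of 848, and a TE difference of 0.45 (z 1.84). Its footprints, 2921 and 2238 beside 2509, differed by 0.040. Syt5, a synaptotagmin of vesicles, was the second highest member in both footprints, at 0.13, and RNA-Seq, at 0.19. Its footprint libraries had 2396 and 2394 reads beside 2185, both higher. Bin1, a membrane-curving endocytic adaptor, had a footprint change of 0.13, with libraries at 2827 and 2626 beside 2489. Of the 8 vesicle membrane proteins, 6 had lower footprints, where 4182 of all 8576 transcripts did. The lowest was Syngr3 at -0.17, with libraries at 1319 and 1522 beside 1593. The glycoprotein Sv2a, at -0.014, and the tetraspan protein Syngr1, at 0.063, differed little in footprints. Sv2b, a relative of Sv2a, had a TE difference of -0.18, the third lowest.

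The comparison of GS/DA LRRK2 TG with non-TG control asks what remains when the overexpressed protein lacks kinase activity, and it shares control samples with the comparison above. Here the members had more footprints than control. The median change was 0.095 (log2), against -0.0068 over all transcripts. Of the members 29 of 37 were higher, where 47.5% of all transcripts were. On log2 reads of single libraries the median of 34 members was 0.077, and it ran from 0.041 to 0.14 with 1 library left out. RNA-Seq was higher too, with a median of 0.17 against 0.055. In footprints, 21 of 34 members with recovered libraries were higher in both library sets, where 28.2% of all 8384 transcripts were, and 3 were lower in both, where 32.3% were. Both GS/DA LRRK2 TG libraries lay above both control libraries for 10 members, or 29.4%, where 11.99% of all transcripts did, and below them for 0 members, where 12.3% did.

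Syp, the synaptophysin that is the most used marker of vesicle membranes, had 9047 and 8227 footprint reads in the control libraries and 11231 and 10210.0 in GS/DA LRRK2 TG. The groups do not overlap, and the change was 0.31 in set 1 and 0.31 in set 2. Pclo had 2212 and 1512 reads in control and 2868 and 1895 in GS/DA LRRK2 TG. Its groups overlap, because set 2 is lower in both, while the change was 0.37 and 0.32 within the sets. Rph3a, rabphilin, an effector of the vesicle GTPase Rab3 that also binds calcium, had 3003 and 3277 reads in control and 3425 and 4134 in GS/DA LRRK2 TG, with no overlap. Bsn, the partner of Pclo in the active zone matrix, had 2585 and 2510.2 against 3183 and 2862. All 4 were thus higher in both sets.

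In limma, 0 of 8384 transcripts (0%) passed an adjusted p (Benjamini-Hochberg) of 0.05 for footprints, and 145 had an unadjusted p under 0.05, Syp being the 1 member among them at 0.0402. With the matched sets as a block, limma called 175 transcripts, 91 of them higher (1.09%), and 3 of the 34 members, all higher. For Syp the change was 0.31 with a standard error (SE) of 0.050 and an adjusted p (limma, Benjamini-Hochberg) of 0.00834. For Pclo it was 0.35 with an SE of 0.061 and an adjusted p of 0.0134 from the same limma fit. Rph3a was the least certain of the 3, at 0.26 (SE 0.060) and an adjusted p of 0.0489 in limma. Bsn, at 0.24, missed the threshold with an adjusted p of 0.0692 in limma. All 13 of 34 members with an unadjusted p under 0.05 in this fit were higher, where 1296 of all 8384 transcripts had such a p in either direction. Without a block, leaving out 1 library gave 37 calls (control, set 1), 17 (control, set 2), 4 (GS/DA LRRK2 TG, set 1) and 25 (GS/DA LRRK2 TG, set 2), 0 of them members. The calls of members need the matching, since with set 1 of a group matched to set 2 of the other, limma called 6 transcripts and 0 members, 0 members also having an unadjusted p under 0.05. Without the block the p-values measure the spread between libraries, each a pool of mice. With it they measure only the spread left after the sets are taken out, and the matching was read from these same values.

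The other roles followed in footprints to different extents. On group means, where 47.5% of all transcripts were higher, all 4 endocytic adaptors were higher, from 0.035 for Bin1 to 0.21 for Snap91, a clathrin assembly protein of synapses. Snap91 had 5777 and 4926 reads in control and 6952 and 5459 in GS/DA LRRK2 TG, while Bin1 was higher in set 1 alone. The synapsins and beta-synuclein were also all higher, from 0.14 for Syn2 to 0.22 for Syn1. Of 7 active zone members all 7 were higher on group means, but Rims1, Rims2 and Erc1 were lower in set 2, at -0.14, -0.014 and -0.026. Of 7 members grouped as calcium sensors 6 were higher on group means, the exception being Doc2b at -0.041. Syt4 was lower in set 1, at -0.049. Syt11, a synaptotagmin without calcium binding, had 6996 and 8114 reads in control and 7195 and 8480.1 in GS/DA LRRK2 TG. The SNARE partners were split, with 2 of 5 higher and a median of -0.0035. Cplx2 had 7174 and 9579 reads in control and 6914 and 9190.1 in GS/DA LRRK2 TG, lower in both sets although the groups overlap. The lowest members were Sv2c, a form of SV2 enriched in the basal ganglia, at -0.11, Synpr at -0.092 and Vamp1 at -0.084. Sv2c had 2725 and 2708 reads in control and 2254 and 2776 in GS/DA LRRK2 TG, lower in set 1 and higher in set 2. Synpr, synaptoporin, a relative of synaptophysin, had 2112 and 2117 against 1761 and 2208, also lower in set 1 alone.

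Markers of neurons differed beside these footprints. Of 12 cortical projection neuron markers 6 were measured, none at 0, with a median footprint change of 0.67 and 5 of 6 higher. The most abundant, Nrgn, was the exception, at 19218 reads in control and 16495 in GS/DA LRRK2 TG. The other 5 markers summed to 4261 and 4037 reads in the control libraries and 7576 and 5852 in GS/DA LRRK2 TG. Striatal spiny neuron markers had a median footprint change of -0.20, 1 of 14 being higher. The 9 of them recovered in every library, which leave out their most abundant gene Ppp1r1b, summed to 37685 and 40620.2 in control and 31494 and 37587 in GS/DA LRRK2 TG. The part of either cell type in the changes of the members was not tested.

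RNA-Seq of the same groups was higher in both sets for 20 of 36 members, where 21.7% of all 8409 transcripts were, and lower in both for 6, where 15.97% were. Rph3a had 1878 and 3961 RNA-Seq reads in control and 2265 and 5257 in GS/DA LRRK2 TG, higher in both sets. Pclo had 2552 and 925 against 3808 and 1078, again higher in both sets. Syp had 3707 and 5863 against 4269.8 and 7566. For these members footprints and RNA-Seq were higher together, and their TE differences were -0.10, -0.14 and 0.0052. The highest RNA-Seq change was that of Ppfia2, with 1152 and 249 reads in control and 2136 and 216 in GS/DA LRRK2 TG. It is higher in set 1 alone, and 1 library makes the change of 0.75. At the low end were Vamp1 at -0.40, Sv2c at -0.24 and Synpr at -0.21, the same 3 genes that were lowest in footprints. In limma 0 of 8409 transcripts (0%) were called for RNA-Seq, with 0 at an unadjusted p under 0.05, and the block left 1 call (0.0119%), not a member, with an unadjusted p under 0.05 for 117 of 8409 transcripts and 3 of 36 members, Pclo, Bsn and Rph3a. On log2 reads of single libraries the median RNA-Seq change of the members was 0.11. It was -0.054 without the control library of set 1 and -0.16 without the GS/DA LRRK2 TG library of set 2. It was 0.33 without the control library of set 2 and 0.28 without the GS/DA LRRK2 TG library of set 1. Leaving out 1 library leaves the sets unequal between groups, so these values also carry the gap between sets. Within the matched sets the medians were 0.18 and 0.043.

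TE in GS/DA LRRK2 TG passed a z of 1.5 for Vamp1 and Rims2, 2 of 37 members, where 3.65% of all transcripts did, and a z of -1.5 for Ppfia2, 1 of 37, where 7.36% did. The median TE difference of the members was -0.027, against -0.055 over all transcripts. Centering footprint and RNA-Seq changes on the median of all transcripts, which shifts all transcripts alike, made these 0.035 and 0.0073. On log2 reads of single libraries, leaving out 1 library again leaves the sets unequal between groups. The median of the members then ran from -0.23 without the control RNA-Seq library of set 2 to 0.26 without that of set 1. Vamp1 had 263 and 365 RNA-Seq reads in control and 135 and 342 in GS/DA LRRK2 TG, with footprints of 551 and 412 in control against 498 and 411. Its TE difference of 0.31 (z 2.23) rests on the RNA-Seq libraries of set 1. With RNA-Seq of set 2 alone, 0 members passed in either direction, where 7.40% of all transcripts were up and 2.70% down. With set 1 alone Vamp1 passed upward, where 4.06% did, and Ppfia2 downward, where 7.98% did. Rims2 had 7606 and 640.0 RNA-Seq reads in control and 6835 and 529.8 in GS/DA LRRK2 TG, and a TE difference of 0.22 (z 1.67). Ppfia2 had a TE difference of -0.64 (z -3.27). Its footprints were 732 and 765 in control and 825 and 785 in GS/DA LRRK2 TG, a change of 0.11 against 0.75 in RNA-Seq. Syt4 and Syt7 were the next lowest, at -0.22 and -0.20, and Rims1 the third highest at 0.16. For the interaction of genotype and assay, limma called 0 of 8316 transcripts (0%), with 0 at an unadjusted p under 0.05, and 0 with the block (0%), where 22 had an unadjusted p under 0.05 and none of them was a member.

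**Figure D2:**
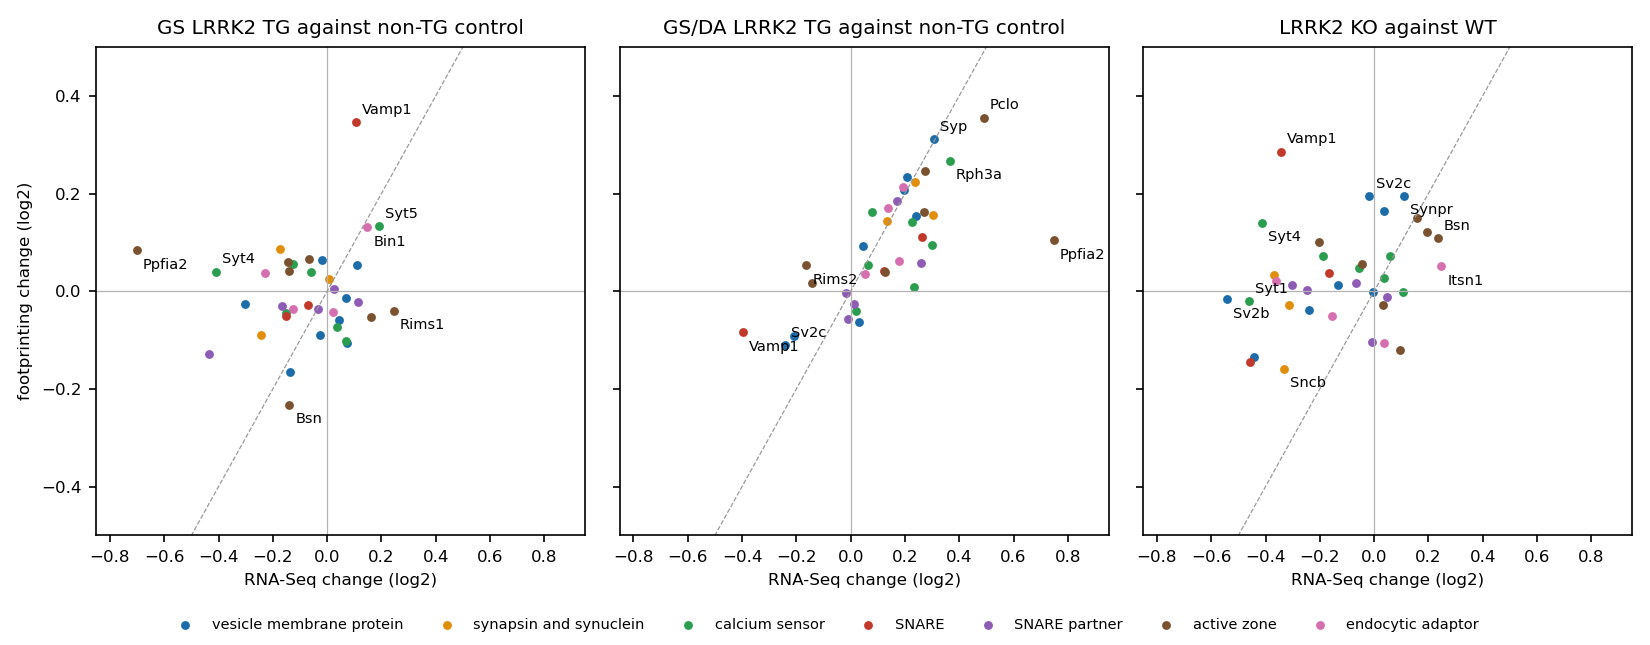
Change in RNA-Seq (log2, x axis) and in footprints (log2, y axis) of the 37 members on group means, 1 panel a comparison and 1 point a member, colored by role, with a dashed line where both changes are equal and TE does not differ. In GS/DA LRRK2 TG 29 points lie above 0 in footprints, and in LRRK2 KO 24 lie below 0 in RNA-Seq.

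The comparison of LRRK2 KO with WT asks what is lost without LRRK2. Footprints of the members were close to WT, with a median change of 0.017 (log2) against 0.016 over all transcripts. RNA-Seq was lower for 24 of 37 members, where 4656 of all 9561 transcripts were lower, with a median of -0.067 against 0.0075. The TE difference had a median of 0.13 against 0.017. Vamp1, Syt4, Sv2b and Syt1 passed a z of 1.5, 4 of 37 members or 10.8%, where 6.23% of all 9561 transcripts did, and 0 passed -1.5, where 6.02% did. All 8 vesicle membrane proteins, all 3 SNAREs and all 3 synapsin and synuclein members had a TE difference above 0, where 53.0% of all transcripts did. Their medians were 0.17, 0.31 and 0.29. Of the active zone members 5 of 7 were below 0, where 4492 of all 9561 transcripts were.

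The lower RNA-Seq lies mainly in set 2, although 12 of the 37 members were lower in both sets. Snap25 had 7426 and 16038 RNA-Seq reads in WT and 7246 and 9852 in LRRK2 KO. Set 1 is nearly equal between the groups and set 2 is lower, at changes of -0.035 and -0.70. Syp had 1160.0 and 4714 in WT and 1092 and 3235 in LRRK2 KO, with changes of -0.087 and -0.54. Syt1, the calcium sensor of fast release, had 1185 and 3794 in WT and 1121 and 2495 in LRRK2 KO. For each of these genes, the 2 WT libraries lie farther apart than the genotype means. Syn1 had 2843 and 5274 against 2822 and 3705, and Snap91 had 1455 and 2646 against 1455 and 1738, also nearly equal in set 1 and lower in set 2. The median RNA-Seq change of the members was -0.022 in set 1 and -0.20 in set 2, where all transcripts had 0.0030 and 0.0020. Of the 37 members 12 were lower in both sets, where 23.6% of all 9529 transcripts were, and 4 were higher in both, where 24.5% were. On log2 reads of single libraries the median RNA-Seq change was -0.087. It was 0.13 without the WT library of set 2 and 0.0028 without the LRRK2 KO library of set 1. It was -0.45 without the WT library of set 1 and -0.36 without the LRRK2 KO library of set 2. The median TE difference, 0.11 on that scale, was -0.11 without the WT RNA-Seq library of set 2. Without the LRRK2 KO RNA-Seq library of set 1 it was -0.057. It was 0.45 without the WT RNA-Seq library of set 1 and 0.38 without the LRRK2 KO RNA-Seq library of set 2. Without 1 footprint library it was -0.053 (WT, set 2), -0.0045 (LRRK2 KO, set 1), 0.26 (WT, set 1) and 0.20 (LRRK2 KO, set 2). Leaving out 1 library leaves the sets unequal between groups, so all of these RNA-Seq and TE medians also carry the gap between sets.

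Sv2b was the lowest member in RNA-Seq at -0.54 and one of those lower in both sets, with 404 and 1494 reads in WT and 333 and 970.2 in LRRK2 KO. Its footprints were 1336 and 573 in WT and 1292 and 596 in LRRK2 KO, and its TE difference was 0.53 (z 1.86). Syt4 had 281 and 994 RNA-Seq reads in WT and 269 and 688 in LRRK2 KO, and a TE difference of 0.55 (z 1.95). Its footprints, 854 and 445 in WT and 1063 and 369 in LRRK2 KO, were higher in set 1 and lower in set 2. Syt1 had a TE difference of 0.44 (z 1.55), just past the cutoff. Vamp1 had the highest TE difference at 0.63 (z 2.24). Its footprints were 188 and 143 in WT and 214 and 189 in LRRK2 KO, the highest change of all members at 0.29. It was the 1 of 37 members with both LRRK2 KO libraries just above both WT libraries, against 593 of 9529 transcripts. Its RNA-Seq reads were 161 and 251 in WT against 151 and 173, lower in both sets. With RNA-Seq of set 1 alone, Vamp1 was the 1 of 37 members above a z of 1.5, where 6.20% of all transcripts were, and with RNA-Seq of set 2 alone Erc1, Syt4 and Vamp1 were, 3 of 37, where 6.31% were.

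In footprints, 7 members were higher in both sets, where 24.3% of all 9529 transcripts were, and 4 were lower in both, where 19.4% were. Synpr and Sv2c followed Vamp1 at the high end, at 0.20 and 0.19, both mainly in set 1. Synpr had 592 and 408 reads in WT and 731 and 414 in LRRK2 KO. Slc32a1, the transporter that loads GABA into vesicles, had 1611 and 690.1 against 1829 and 749.8, higher in both sets by 0.18 and 0.12. Sncb was lowest at -0.16, with 2133 and 1701 in WT and 1816 and 1619.8 in LRRK2 KO. Snap25, with 15055 and 13984 against 14483 and 11772, had a change of -0.15, and Syp, with 4509 and 1567 against 3936 and 1600.2, of -0.13. Scaffolds were split in RNA-Seq, with Erc1 lower at -0.20 and Ppfia2 at -0.045. Itsn1 was highest at 0.25, with 1448 and 1015 reads in WT and 1418 and 1506 in LRRK2 KO, higher in set 2 alone, followed by Bsn at 0.23 and Pclo at 0.19. Bsn had 2197 and 2437 against 2498 and 2956. It was the 1 of 37 members with both LRRK2 KO libraries above both WT libraries, against 671 of 9529 transcripts. The lowest TE differences were those of Rims1 at -0.22, Itsn1 at -0.20 and Bin1 at -0.15.

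By limma, none of the 37 members was called in LRRK2 KO, where 4 passed the TE cutoff. In limma 0 of 9529 transcripts (0%) were called for footprints and 0 (0%) for RNA-Seq, with 7 transcripts at an unadjusted p under 0.05 in each and 0 members among them. For the interaction of genotype and assay limma called 0 of 9527 (0%), with 2 transcripts and 0 members at an unadjusted p under 0.05. The block left 11 footprint calls (0.115%), 12 RNA-Seq calls (0.126%) and 0 interaction calls (0%), 0 of them members. With the block, 1 of 37 members had an unadjusted p under 0.05 in RNA-Seq, where 409 of 9529 transcripts did, and 1 of 37 in the interaction, where 173 of 9527 did. They were Sv2b in RNA-Seq (-0.44, SE 0.21) and Vamp1 in the interaction (0.58, SE 0.28). Cortical projection neuron markers were lower in RNA-Seq beside these members, 0 of 11 being higher in LRRK2 KO, at a median change of -0.29, with none at 0. They summed to 8632 and 15667 RNA-Seq reads in WT and 7687 and 13038 in LRRK2 KO, and Nrgn, the most abundant, had 6522 and 5945 on the group means. Their part in the result was not tested.

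**Figure D3:**
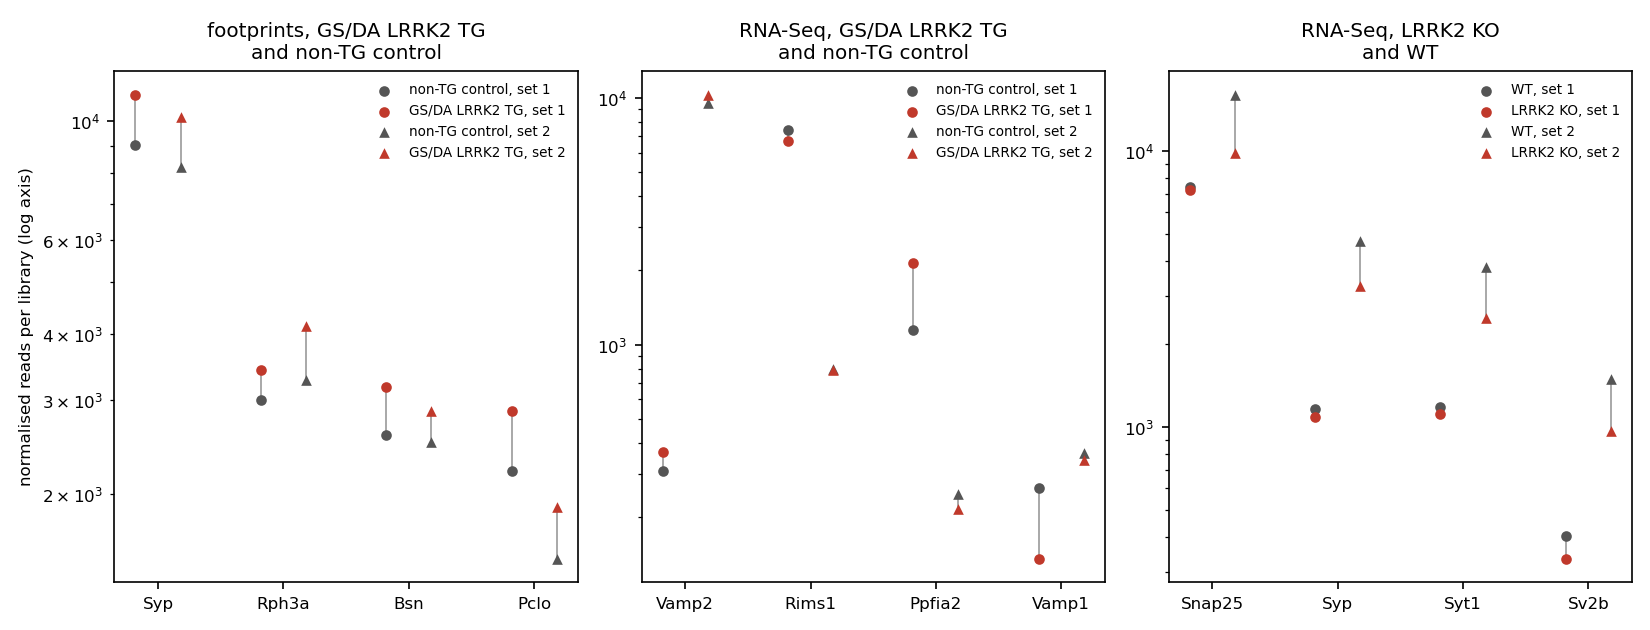
Normalized reads of single libraries (log axis) for 4 members a panel, with control in grey and genotype in red, set 1 as circles and set 2 as triangles, and a line joining the matched libraries. Both sets are higher than control in GS/DA LRRK2 TG footprints (left), Vamp2 and Rims1 RNA-Seq differs far more between sets than between genotypes (middle), and Snap25, Syp and Syt1 RNA-Seq in LRRK2 KO is lower in set 2 and close to WT in set 1 (right).

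The study sorts transcripts by the folding energy of the 5′UTR, the leader that the ribosome scans before the start codon. Deposited energies put 5 of 37 members below -250 kcal/mol, the bound for a complex leader, where 13.4% of all transcripts of the transgenic tables lie. They are Pclo at -632, Stxbp5, the SNARE-binding tomosyn, at -616, Syn2 at -399, the endocytic adaptor Amph at -327 and Sv2b at -273 kcal/mol. Napa, the adaptor of Nsf, was the 1 member with a simple leader, above -20 kcal/mol, at -11.2 kcal/mol, where 12.1% of all transcripts of the transgenic tables are simple. In GS LRRK2 TG the 5 members with complex leaders had a median TE difference of 0.019 and the other members 0.061. In GS/DA LRRK2 TG the medians were 0.0096 and -0.032, and in LRRK2 KO 0.11 and 0.14.

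The start codons of 6 of the 7 members past the TE cutoff in a comparison, all but Syt4, are shown because this is where the ribosome begins to decode. Each line gives, 5′ to 3′ from the annotated coding transcript with the longest CDS (GENCODE vM1 on NCBIM37, equal to the mm9 build of the authors), 12 bases before the start codon, the start codon in capitals, and the next 3 bases.
Ppfia2: gagacattagcaATGatg
Rims1: gttgtcagggacATGgcg
Rims2: gctccgccaaacATGtcg
Sv2b: cagaaccaaggaATGgat
Syt1: cttgaaccaaaaATGgtg
Vamp1: tctttcagaaaaATGtct
The start codon of Ppfia2 is at chr10:105911690-105911692 on the plus strand and that of Rims2 at chr15:39029909-39029911 on the plus strand. That of Rims1 is at chr1:22733831-22733833, of Sv2b at chr7:82351424-82351426 and of Syt1 at chr10:108128100-108128102, all on the minus strand. For Vamp1, on chromosome 6, the annotation gave no single position of the start codon. A strong context has a purine at position -3 and a G at position 4, counted from 1 at the A of the start codon. All 6 shown have the purine and 3 of 6 the G. Among the 35 members with a context, 32 have the purine and 20 the G, or 91.4% and 57.1%, against 85.9% and 52.7% of 9158 genes of the tables. Ppfia2 and Rims1, on opposite sides of the cutoff in GS LRRK2 TG, both have the purine.

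Beyond the 37 members, 76 other genes of vesicles and release were listed, of which 56 were measured in each transgenic table and 60 in the LRRK2 KO table. In GS LRRK2 TG their median footprint change was -0.0021, and 5 of 56 passed a z of 1.5 in TE, where 8.01% of all transcripts did, and 1 of 56 a z of -1.5, where 3.91% did. Those above were Slc17a7, the vesicular glutamate transporter of cortical neurons, at 0.68, Sypl at 0.50, Itsn2 at 0.49, Syt16 at 0.47 and Ppfibp1 at 0.43, and the 1 below was Stxbp5l, a tomosyn, at -0.39. Slc17a7 and Trim9 had the lowest footprint changes on group means, at -0.24 and -0.23, and Sypl and Stxbp6 the highest, at 0.27 and 0.23. The footprint libraries of Slc17a7 had 258 and 1425 reads beside a control mean of 995, 1 below and 1 above, and those of Trim9 and Stxbp6 also fall on both sides of the control. In GS/DA LRRK2 TG the median was 0.030, with 1 of 56 genes past a TE z of 1.5 (3.65% of all transcripts), Doc2a at 0.46, and 3 of 56 past -1.5 (7.36% of all transcripts), Itsn2 at -0.54, Ppfibp1 at -0.43 and Cask at -0.40. Slc17a7, which also stands in the list of cortical markers, had 994 and 673 footprint reads in control and 2516 and 1577 in GS/DA LRRK2 TG, with no overlap. In limma with the block, 8 of 55 recovered genes of the list were called higher and 0 lower in footprints, where 1.09% of all transcripts were called higher, while 0 were called without it and 1 with the matching crossed. Slc17a7 had a change of 1.27 and an adjusted p (limma, Benjamini-Hochberg) of 1.52e-06, higher in both sets. The other 7 were also higher in both sets. In that fit they included Doc2a, a calcium sensor of spontaneous release, at 0.84, Cadps2, a priming factor of dense-core vesicles, at 0.80, Syt13 at 0.49, Apba2 at 0.41, Rimbp2 at 0.31 and Dmxl2 at 0.28. In RNA-Seq Slc17a7 had 547 and 1740.2 reads in control and 1544 and 3592 in GS/DA LRRK2 TG, and it was the 1 transcript called with the block, at 1.26 and an adjusted p of 0.00775 in limma. Syt2, a fast calcium sensor, and Syt10 had the lowest footprint changes, at -0.34 and -0.19. In LRRK2 KO the median RNA-Seq change of the list was -0.11 and the median TE difference 0.12, close to those of the members. Above a TE z of 1.5 were 3 of 60 genes, where 6.23% of all transcripts were, and below -1.5 was 1 of 60, where 6.02% were. Those above were Syn3, another synapsin, at 0.75, Stxbp5l at 0.62 and Napg at 0.52, and the 1 below was Syt3 at -0.49. Footprint changes ran from -0.46 for Syt13 and -0.45 for Unc13b to 0.32 for Ppfibp1 and 0.32 for Syn3.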

How the data were processed

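Striatal libraries of ribosome footprints and RNA-Seq were used as deposited, in 3 tables with 1 value per transcript, group and assay. The deposited signal values are means, over the libraries of a group, of reads in CDS divided by DESeq size factors by the authors, after mapping to mm9 with TopHat2 2.0.11 and Bowtie2 2.2.2. The other deposited value used is a predicted energy of leader folding (kcal/mol), taken by the authors from the mm9 annotation. The authors' TE, TE difference and z columns hold their own comparisons and were not used. Midbrain samples were left out of the comparisons. Which of the libraries in the labels make up a recovered mean is not given.

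TE was recomputed without a pseudocount, with z over all transcripts of a table. Single libraries were recovered from the spacing of the means, which are sums of whole reads on 2 scales. They held 6789807 to 16133000 footprint reads and 10500637 to 13106955 RNA-Seq reads in the GS/DA table, 2880879 to 6008521 and 3126208 to 10758587 in the LRRK2 KO table, and 7341152 to 8358210 and 8271324 to 13798929 for GS LRRK2 TG. Differences between libraries were tested with limma 3.58.1 (trend) on log2 of normalized reads plus 10, with Benjamini-Hochberg adjustment over all recovered transcripts of a table and a threshold of 0.05, for footprints, RNA-Seq and their interaction. The recovery and the tests were tested on simulated data. For the tests, all simulated libraries were drawn from footprint means, with smaller gaps between sets than RNA-Seq has. They therefore do not stand for the RNA-Seq and interaction tests. Python 3.11.15, numpy 2.4.6, pandas 2.3.3, scipy 1.17.1, matplotlib 3.10.9 and R 4.3.3 were used. CDS lengths, positions and start codons come from GENCODE vM1.

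Alternatives were minimum reads, pseudocount, scaling, z cutoff and z from the median, 1 transcript a symbol, the block, each library or set left out, and levels without length. Named members are the 3 highest and 3 lowest per comparison and quantity, those past a threshold, and the 5 highest and 5 lowest in control by level and by TE. Of the 76 other genes they are most of those past a threshold and the 2 highest and 2 lowest in footprints. Other genes named were chosen after their values were seen. The members and all lists were chosen with earlier results of these data known.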

Additional observations from a re-analysis of the deposited data

How the results depend on the processing

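Medians of the members changed sign under some alternatives. The median TE difference in GS/DA LRRK2 TG was 0.0091 with RNA-Seq of set 2 alone. Counts of members past the TE cutoff depend on the cutoff. With z at 1, TE was up for 4 members (15.6% of all transcripts) and down for 4 (12.9%) in GS LRRK2 TG, up for 5 (11.5%) in GS/DA LRRK2 TG and up for 10 (14.3%) in LRRK2 KO. With z at 2 it was up for 1 in GS LRRK2 TG (3.71% of all), 1 in GS/DA LRRK2 TG (1.12%) and 1 in LRRK2 KO (2.90%), and down for 0 in GS LRRK2 TG (1.03%). With a minimum for all group means of 4 times the filter of the authors, 1 member was up in GS LRRK2 TG (7.96% of all) and 1 in GS/DA LRRK2 TG (2.47%), and a lower minimum also left 1 in the latter (3.19%). Of 64 such counts under the alternatives 48 stayed within 1.5 times the reported count.

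The TE of a single library set was added as an alternative after seeing the data. With RNA-Seq of set 1 alone, TE was up for 1 member in GS/DA LRRK2 TG (4.06% of all) and 1 in LRRK2 KO (6.20%). With RNA-Seq of set 2 alone it was up for 0 (7.40% of all) and down for 0 (2.70%) in GS/DA LRRK2 TG, and the median TE difference in LRRK2 KO was 0.27. With footprints of set 1 alone TE was up for 2 members in LRRK2 KO (6.41% of all). The median RNA-Seq change in set 2 was 0.043 in GS/DA LRRK2 TG and -0.20 in LRRK2 KO, and the median footprint change in set 1 was -0.0071 in LRRK2 KO, where both means gave 0.017. Not divided by length, the median percentile of control footprints was 86.7 in the GS/DA table and 92.8 in the LRRK2 KO table. The causes were not tested.

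With the matched sets as a block (library batch block), limma called 175 transcripts and 3 members for footprints in GS/DA LRRK2 TG, 1 transcript for RNA-Seq, and in LRRK2 KO 11 for footprints and 12 for RNA-Seq. Crossed matching, added after seeing the data, gave 6 for footprints in GS/DA LRRK2 TG. Leaving out 1 library gave 4 to 37 there, where the lone library of a group is assumed to vary like the others. The median change of the members on log2 reads of single libraries then ran, in GS/DA LRRK2 TG, from 0.041 to 0.14 for footprints, -0.16 to 0.33 for RNA-Seq and -0.23 to 0.26 for TE, and in LRRK2 KO from -0.074 to 0.023, -0.45 to 0.13 and -0.11 to 0.45. With 1 library left out the sets are unequal between groups, so these medians also carry the gap between sets. Apart from the block, whose pairs are read from the values, no paired analysis was possible because the recovered libraries carry no replicate number.

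Depth and number limit these results. The tests have 2 libraries a group, from means of which labels list 3 libraries for some groups, and none was made for GS LRRK2 TG. Some members were not recovered, namely Vamp2 in RNA-Seq of GS LRRK2 TG and, in the GS/DA table, Snap25 and Nsf in footprints, Nsf in control RNA-Seq and Syn1 in GS/DA LRRK2 TG footprints. The lowest member had 86 footprint reads (Syt7, WT) and 82 RNA-Seq reads (Ppfia2, GS LRRK2 TG) in a library. Transgenic and LRRK2 KO tables were normalized separately, so differences between comparisons were not tested.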

Other observations

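Glial markers were read beside the members. Of 10 oligodendrocyte markers all 10 were measured in every table. Their median footprint change was 0.20 in GS LRRK2 TG, where 10 of 10 were higher, 0.054 in GS/DA LRRK2 TG and -0.053 in LRRK2 KO. Of 9 astrocyte markers all 9 were measured, with median footprint changes of 0.10, 0.11 and -0.12 in the same order. Aldoc was their most abundant gene, at 11986 reads in control and 12354 in GS LRRK2 TG. Of 10 microglia markers 8 were measured in the transgenic tables and 9 in the LRRK2 KO table, with medians of 0.084, 0.076 and 0.061. None of these markers was at 0, and their part in the values of the members was not tested.

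Neuronal markers in the remaining comparisons were as follows. In GS LRRK2 TG the 6 measured cortical projection neuron markers had a median footprint change of -0.15 and a median RNA-Seq change of -0.32, 0 of 6 being higher in RNA-Seq. Striatal spiny neuron markers had a median footprint change of -0.11 in GS LRRK2 TG and 0.11 in LRRK2 KO. In GS/DA LRRK2 TG the median RNA-Seq change was 0.73 for the cortical list, with 6 of 6 higher, and -0.12 for the striatal list.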
